A study of Mus musculus with 18 samples.

Results

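The comparison set the mRNA of heavy polysomes from macrophages given LPS and torin1 against that from macrophages given LPS alone, to find which mRNAs torin1 removes from or adds to heavy polysomes. Its members are the 6 libraries labelled as polysome-associated mRNA with the treatment 6h_LPS_Torin1 (3 replicates) or 6h_LPS (3 replicates), of 18 libraries in the series, and a library of one treatment was paired with the library of the other that has the same replicate number. All libraries came from RAW264.7, an established mouse macrophage line. Cells of the 6h_LPS group had 500 ng/mL of LPS for 6 h. Cells of the 6h_LPS_Torin1 group had the same LPS in combination with 100 nM torin1, which was added 15 min before the LPS. The vehicle group (Veh, 3 replicates) entered the fit and is given as the background. Heavy polysomes are the pooled gradient fractions of mRNAs that carry many ribosomes, and total mRNA came from the same lysates. The 6 libraries held between 34930909 and 47725557 counts over 11243 protein-coding genes, and values are CPM, counts scaled to a common library total on the TMM scale of edgeR.

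LPS, a component of the bacterial outer membrane, is sensed by Toll-like receptor 4 and switches macrophages to the production of cytokines, chemokines and interferon-stimulated genes. Torin1 blocks the kinase mTOR in both of its complexes. The complex mTORC1 promotes the translation of mRNAs that begin with an oligopyrimidine tract (TOP mRNAs), among them the ribosomal protein mRNAs, raises anabolic transcription through ATF4 and SREBP, and holds the lysosomal regulators TFEB and TFE3 in the cytoplasm. Because CPM are shares of a library, a loss of polysomes that touches all mRNAs alike cannot be seen in them.

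The label of the cells was compared with marker genes. Of 16 macrophage markers, 15 were in the table (Mertk was not), and their summed level in polysome mRNA was 24645, 21214 and 24136 CPM with LPS and 22270.0, 19226 and 20470.0 CPM with torin1, with Lyz2 the most abundant. Of 21 markers of other cell types, 3 were in the table, and these summed to 8.59, 6.61 and 6.59 CPM and 5.17, 4.79 and 6.18 CPM, with S100a8 the most abundant. The other 18, which include Cd3e, Epcam, Col1a1 and Pecam1, were not in the table, from which the authors had removed genes with 0 counts in any library. The share of counts on 10 mitochondrially encoded genes was 0.566, 0.659 and 0.737% with LPS and 0.78, 0.769 and 1.06% with torin1, higher with torin1 in each of the 3 pairs, and its part in the results was not tested.

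Torin1 changed the polysome level of 2552 of 11243 genes (22.7%) at an adjusted p of at most 0.05 in edgeR's quasi-likelihood test with the replicate number as a block. Of these, 1391 rose (12.4% of all genes) and 1161 fell (10.3%), and each of the 2552 moved the same way in all 3 pairs. A change of at least 2-fold was found for 479 of the rising and 331 of the falling genes, and of at least 4-fold for 79 and 73. The number rests on the pairing and on single replicates: it was 1557 without the block, 920 without replicate 1, 4251 without replicate 2 and 205 without replicate 3, while it was 5647 in a fit of the 6 libraries alone. At an adjusted p of at most 0.25 it was 5587 (49.7%). With library totals in place of TMM, 1639 rose and 902 fell. Of called genes with a mean of at least 5 CPM, the 24 with the largest changes (12 in each direction), most of which the next paragraphs describe, passed in every one of these fits.

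**Figure D1:**
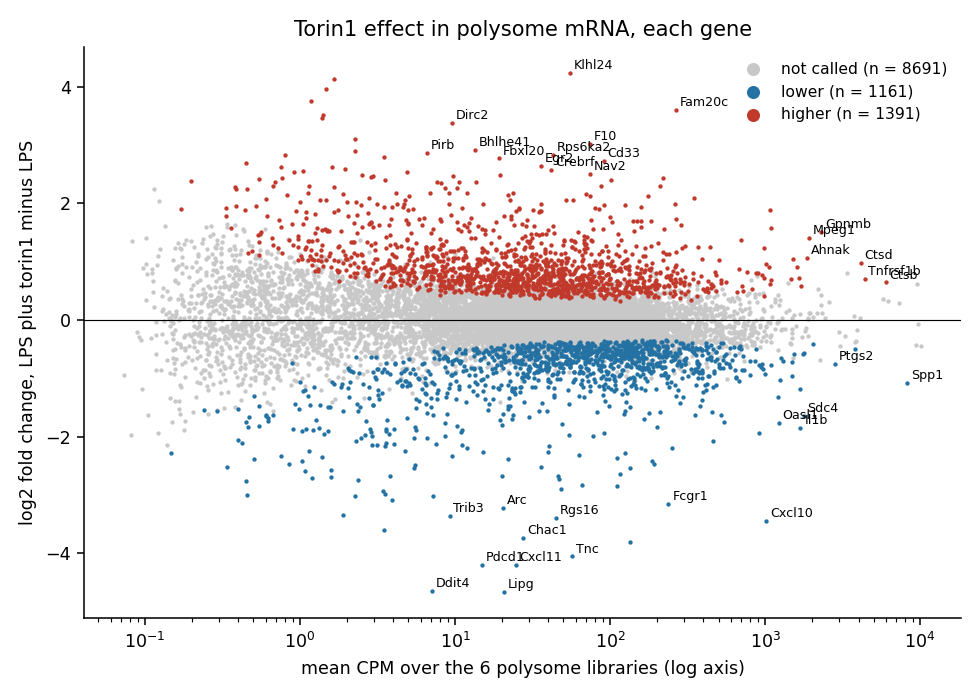
Log2 fold change in polysome mRNA (LPS plus torin1 minus LPS) against mean CPM over the 6 libraries on a log axis, with 1 point a gene. The 1391 genes that rose are red, the 1161 that fell are blue and the other 8691 are grey, and genes with large changes carry their symbols.

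The largest fall in heavy polysomes was that of Lipg, which encodes endothelial lipase. It stood at 54.9, 40.2 and 24.1 CPM with LPS in replicates 1 to 3 and at 1.13, 2.45 and 1.04 CPM with torin1 (log2 fold change −4.67, standard error 0.35, adjusted p = 0.000468). The groups did not overlap, and the vehicle libraries lay at 0.273, 0.135 and 0.244 CPM. Ddit4, an inhibitor of mTORC1 that stress induces, went from 21.9, 14.7 and 4.44 to 0.592, 0.676 and 0.244 CPM (log2 fold change −4.65, standard error 0.51, adjusted p = 0.00104), with replicate 3 the lowest in both groups. Tenascin C (Tnc), a matrix glycoprotein, had 146, 44.4 and 132 CPM with LPS and 6.18, 4.48 and 6.73 with torin1 (log2 fold change −4.06, standard error 0.28, adjusted p = 0.000369), and replicate 2 was the lowest of the LPS libraries. Pdcd1, which encodes the checkpoint receptor PD-1, went from 22.9, 28.7 and 33.5 to 1.26, 2.37 and 1.08 CPM (log2 fold change −4.21, standard error 0.36, adjusted p = 0.000576). Other large falls were those of Chac1 (−3.74) and Trib3 (−3.36), both targets of ATF4, Rgs16 (−3.39), a regulator of G protein signalling, Arc (−3.23), and Cxcl11, Cxcl10 and Fcgr1, which are described with their groups.

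The largest rise was that of Klhl24, an adaptor of a ubiquitin ligase, on chromosome 16 of GRCm38 from 20097542 to 20129221. It stood at 10.3, 4.75 and 2.85 CPM with LPS and at 115, 74.2 and 122 CPM with torin1 (log2 fold change 4.23, standard error 0.44, adjusted p = 0.00082). Fam20c, the kinase of secreted proteins in the Golgi, had 37.4, 58.2 and 28.8 CPM with LPS and 491, 546 and 440.5 CPM with torin1 (log2 fold change 3.60, standard error 0.24, adjusted p = 0.000369). In both genes the torin1 libraries also lay above the vehicle libraries, which held 9.21, 14.1 and 9.02 CPM of Klhl24 and 121, 79.4 and 76.2 CPM of Fam20c. Dirc2, a lysosomal membrane transporter, rose from 1.61, 2.06 and 1.32 to 15.4, 19.4 and 17.2 CPM (log2 fold change 3.38, standard error 0.19, adjusted p = 0.00016). Coagulation factor X (F10) rose from 27.6, 12.9 and 10.5 to 178, 97.3 and 117.2 CPM (log2 fold change 3.02, standard error 0.30, adjusted p = 0.000794). Cd33, a sialic acid receptor of myeloid cells, had 21.2, 30.6 and 20.7 CPM with LPS and 149.8, 163 and 160.2 CPM with torin1, with little spread in either group (log2 fold change 2.73, standard error 0.15, adjusted p = 0.00016). The remaining rises of the 12 were those of the transcription factors Bhlhe41 (2.92) and Egr2 (2.64), the inhibitory receptor Pirb (2.87), the kinase Rps6ka2 (2.83), the F-box protein Fbxl20 (2.77), Crebrf (2.57) and Nav2 (2.51). In total mRNA of the same lysates all 24 of these genes had log2 fold changes of the same sign, 4.05 for Klhl24 and −4.95 for Lipg, and none had an adjusted p of at most 0.05 in the test of polysome minus total mRNA.

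**Figure D2:**
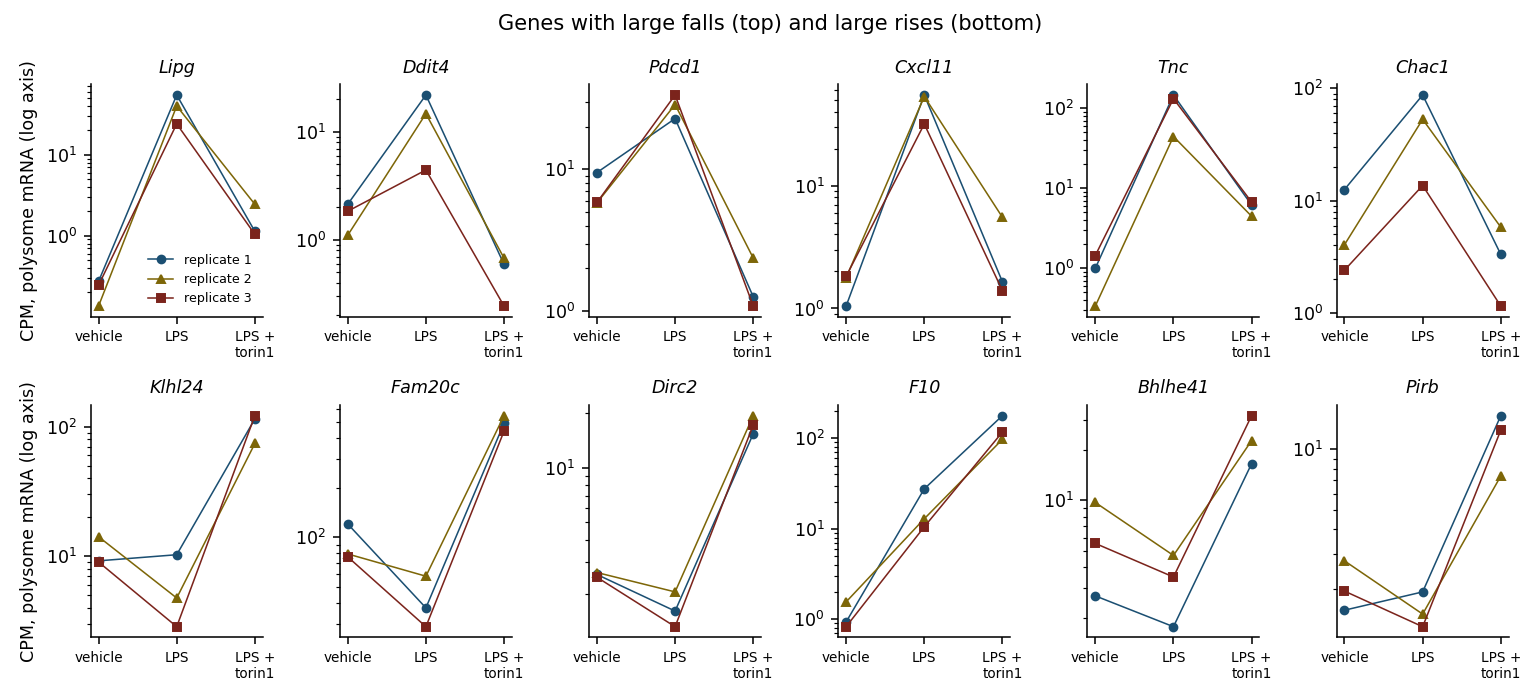
CPM in polysome mRNA (log axis) of 6 genes with large falls and 6 with large rises, in vehicle, LPS and LPS plus torin1, with 1 line a replicate. In every panel the LPS and torin1 libraries do not overlap.

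Among called genes ranked by the change in CPM, those that lost most were Spp1, Il1b, Sdc4, Cxcl10, Ptgs2 and Oasl1. Osteopontin (Spp1) went from 8246, 10520.0 and 14828 to 4091, 4263 and 7698 CPM (log2 fold change −1.08, standard error 0.15, adjusted p = 0.00203), and replicate 3 was the highest of both groups. Il1b, the cytokine interleukin 1 beta, went from 4309.6, 1332 and 2356 to 855, 679 and 592 CPM (log2 fold change −1.86, standard error 0.38, adjusted p = 0.0106), with replicate 1 the highest of both groups. The syndecan Sdc4 fell from 2799, 2356 and 2878 to 993, 831 and 757 CPM (log2 fold change −1.65, standard error 0.15, adjusted p = 0.000659). The called genes that gained most were Ctsd, Mpeg1, Ctsb, Gpnmb, Tnfrsf1b and Ahnak. Mpeg1, a pore-forming protein of macrophages, rose from 1005, 1132 and 1043 to 3041, 2300.4 and 3034 CPM (log2 fold change 1.41, standard error 0.20, adjusted p = 0.00228). Gpnmb, a glycoprotein of lysosomes and melanosomes, rose from 438, 2164 and 1237 to 1475, 4213 and 4314 CPM (log2 fold change 1.51, standard error 0.18, adjusted p = 0.00137); its groups overlap, since replicates differ, but each pair rose. None of the 6 gains and 2 of the 6 losses (Sdc4 and Cxcl10) passed without replicate 3.

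Of 79 mRNAs of ribosomal proteins, the proteins that make up the ribosome itself, 47 fell in heavy polysomes and 32 did not pass. Of 47 mRNAs of the large subunit 24 fell and 0 rose, and of 32 of the small subunit 23 fell and 0 rose, against 10.3% of all genes that fell. Together these are 59.5% of 79 genes. Summed over the 79, they took 50577, 45425 and 40800.0 CPM with LPS and 30632, 34958 and 25616 CPM with torin1, and vehicle cells had 33859, 38574 and 33469 CPM. The sum was lower with torin1 in each pair, although torin1 replicate 2 was above the vehicle libraries of replicates 1 and 3. The median log2 fold change was −0.65 for the large and −0.75 for the small subunit, with −0.69, −0.46 and −0.72 and −0.83, −0.53 and −0.82 in the 3 pairs, against −0.005 over all genes. In total mRNA the medians were −0.105 and −0.06. Without replicates 1, 2 and 3 in turn, 3, 44 and 0 of the large and 6, 31 and 0 of the small subunit mRNAs fell, and without the block 20 and 15.

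Rps14 fell most among called members, from 2035, 1588 and 1386 to 888, 999 and 582 CPM (log2 fold change −1.04, standard error 0.17, adjusted p = 0.00424), and no torin1 library reached an LPS library. Rps19 went from 576, 462 and 534 to 263, 301 and 227 CPM (log2 fold change −1.0002, standard error 0.15, adjusted p = 0.00314). In the large subunit Rpl37a went from 687, 603 and 521 to 336, 387 and 252 CPM (log2 fold change −0.91, standard error 0.17, adjusted p = 0.00816). The most abundant members differed: Rps3 fell (log2 fold change −0.57, standard error 0.13, adjusted p = 0.0189), while Rpl4 did not pass (log2 fold change −0.14, standard error 0.13, adjusted p = 0.486). Other mRNAs with a TOP tract had 2 falls (Tpt1 −0.57, Eif3k −0.45), 1 rise (Vim, vimentin, 0.80) and a median of −0.17 over 23 of 24 members, and 8.70% of them fell against 10.3% of all genes (0, 8 and 0 members when replicate 1, 2 or 3 was left out). Their rises numbered 0, 3 and 0 in the same order, and 1 without the block. The elongation factor Eef1a1 had 7774, 5354 and 6604 CPM with LPS and 8564, 7802 and 7769 CPM with torin1 (log2 fold change 0.30, standard error 0.16, adjusted p = 0.22). Of 30 initiation factors 4 fell (13.3%, near the 10.3% of all genes) and 0 rose, and the falls numbered 0, 9 and 0 with replicate 1, 2 or 3 left out, 0 without the block and 0 with library totals.

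By the annotation, a minority of ribosomal protein mRNAs begin with the tract that defines TOP mRNAs. An oligopyrimidine start was counted where the annotated start of the principal GENCODE transcript is C and the next 4 bases are each C or T. Examples are 4 ribosomal protein mRNAs with such a start that fell. Their choice by size of fall left out part of the genome, so they need not be those that fell most. They are shown with the leading pyrimidines in capitals, as the first 24 bases of the transcript, 5′ to 3′, on GRCm38:
Rpl37a: CTCTTCggacttgggcttgggttc
Rps21: CCCTCCTgcccaatagtgctgcgg
Rpl37: CTCTTCCggtctctttggcctcgc
Rps15a: CTCCCgaaagggggtgtgtgtgtg

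They begin at chr1:72711290-72711313 (plus strand, Rpl37a), chr2:180257377-180257400 (plus strand, Rps21), chr15:5116645-5116668 (plus strand, Rpl37), chr7:118115654-118115677 (minus strand, Rps15a). Their log2 fold changes in polysome mRNA were −0.91, −0.91, −0.88 and −0.83, and those in total mRNA −0.15, 0.03, −0.06 and −0.08. Falls were not limited to such mRNAs: of 11 ribosomal protein mRNAs with the start 8 fell (median −0.80), and of 68 without it 39 fell (median −0.65). By this rule 13.9% of 79 ribosomal protein mRNAs had an oligopyrimidine start, against 2.34% of 11110 genes that matched the annotation. The share was 2.79% of the genes that fell and 2.23% of those that rose, and 2.18% of the falling genes outside the ribosomal proteins. Annotated starts are not mapped cap sites, so a tract that begins a few bases away is missed: a start within 2 bases was found for 20.3% of the ribosomal protein mRNAs and 6.40% of all, and with any coding transcript, an alternative chosen after seeing the data, for 29.1% and 5.91%.

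In total mRNA of these treatments 4660 genes (41.4%) passed the edgeR test, 2367 higher (21.1%) and 2293 lower (20.4%). Of the 1391 genes that rose in polysome mRNA, 1315 were also called higher in total mRNA. Of the 1161 that fell, 1042 were also called lower. In each direction 0 were called the opposite way in total mRNA. Whether a polysome change differs from that of total mRNA was asked with an interaction term in a model of all 18 libraries, with the lysate as a block. In edgeR 4 of 11243 genes (0.0356%) passed, all with a lower change in polysome than in total mRNA, and 303 had an unadjusted p under 0.05. They were Rps19 (difference −0.99, standard error 0.13, adjusted p = 0.0361), Rps18 (−0.90, adjusted p = 0.0474), Rps18-ps3 (−1.21) and Rps27rt (−1.08). Rps18-ps3 and Rps27rt are near copies of ribosomal protein genes, and how reads that fit more than 1 place were shared among them is not stated beyond the use of default settings. Rps19 in total mRNA had a log2 fold change of −0.03, and Rps18 of −0.01. Rps14 and Rpl26 came next (−1.02 and −0.77, adjusted p = 0.0847 and 0.0888). In the other direction no gene passed, and the first by p was Qars, glutaminyl-tRNA synthetase (difference 0.46, adjusted p = 0.805). The 4 calls do not hold in most alternatives: 0 genes passed without the block, with RLE size factors, with the 12 libraries of the 2 treatments, without replicate 1 or without replicate 3, 1 passed with library totals, 2 with at least 10 counts in every library, 18 without replicate 2 (2 of the 4 among them) and 31 with DESeq2 (3 of the 4). With 1 replicate left out the differences lay at −1.06 to −0.89 for Rps19, −1.02 to −0.81 for Rps18, −1.38 to −1.07 for Rps18-ps3 and −1.23 to −0.95 for Rps27rt.

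Genes of amino acid supply and targets of ATF4 were among those that fell. Of 34 measured targets of the transcription factor ATF4 and amino acid enzymes and transporters, 20 fell (58.8% against 10.3% of all genes) and 1 rose, with a median log2 fold change of −0.84 (−1.22, −0.77 and −0.54 in the pairs) and −0.78 in total mRNA. Their summed level went from 7499.6, 6064 and 4839 to 4353, 4339.7 and 4261 CPM, so that the torin1 libraries lay close together while the LPS libraries spread. Ddit4, Chac1, Trib3 and the mTORC1 inhibitor Sesn2 (log2 fold change −2.73, standard error 0.41, adjusted p = 0.00324) fell most. Sesn2 had 123.6, 95.4 and 27.0 CPM with LPS and 10.3, 16.1 and 7.42 CPM with torin1. The exception was Atf3, a transcription factor that LPS induces, which rose from 602, 663 and 243 to 785, 1099 and 653 CPM (log2 fold change 0.87, standard error 0.21, adjusted p = 0.0212). Of 20 tRNA synthetases, which charge tRNAs with amino acids, 11 fell (55.0%, Yars most, −0.93) and 1 rose (Qars, 0.48). Their median was −0.51 in polysome mRNA and −0.55 in total mRNA. With replicates 1, 2 and 3 left out in turn, 12, 21 and 10 of the ATF4 list and 2, 12 and 0 of the synthetases fell, and without the block 16 and 8. In the same order 1, 1 and 0 of the ATF4 list and 0, 1 and 0 of the synthetases rose. Without the block 0 and 1 rose.

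Other lists of anabolic genes also had members that fell. In total mRNA the median log2 fold change was −0.60 for sterol and fatty acid synthesis and −0.40 for glycolysis and hypoxia. It was −0.42 for ribosome biogenesis, −0.27 for mitochondrial ribosomal proteins, −0.17 for the respiratory chain and −0.19 for polyamine synthesis. Of 38 genes of sterol and fatty acid synthesis and its control, 20 fell (52.6% against 10.3% of all genes) and 0 rose (median −0.53). Acat2, an acetyl-CoA acetyltransferase, was at 16.3, 15.1 and 12.7 CPM with LPS and 7.72, 5.59 and 6.04 CPM with torin1 (log2 fold change −1.18, standard error 0.17, adjusted p = 0.0027). Fatty acid synthase (Fasn), the most abundant, did not pass (log2 fold change −0.57, standard error 0.20, adjusted p = 0.0718). In the list of glycolysis and the hypoxia response 16 of 33 (48.5%) fell and 2 rose (median −0.41). Vegfa, the vascular growth factor, fell from 9.55, 11.4 and 5.37 to 1.13, 2.19 and 2.83 CPM (log2 fold change −2.02, standard error 0.41, adjusted p = 0.00995), whereas Ndrg1 rose from 62.2, 42.2 and 34.9 to 171, 100.3 and 192 CPM (log2 fold change 1.76, standard error 0.32, adjusted p = 0.00711). Among 51 factors of ribosome biogenesis 21 (41.2%) fell, Rrp9 most (−1.05), and 1 rose (Taf1b, 0.54). For nuclear-encoded proteins of mitochondria 14 of 76 mitochondrial ribosomal proteins fell (median −0.34) and 11 of 74 respiratory chain subunits (median −0.33; Atp5g1 most, −0.83), shares of 18.4% and 14.9%, the latter near that of all genes. With library totals 9 and 5 of these fell. The spermidine synthase Srm was among the 3 of 11 polyamine genes that fell (27.3%; 269, 309 and 249 against 129.4, 136.2 and 101.3 CPM, log2 fold change −1.18, standard error 0.14, adjusted p = 0.00134). When replicate 1, 2 or 3 was left out, 12, 28 and 0 sterol genes, 9, 18 and 1 glycolysis and hypoxia genes and 6, 25 and 0 ribosome biogenesis genes fell. In the same order 2, 32 and 0 mitochondrial ribosomal proteins, 0, 39 and 0 respiratory chain subunits and 1, 6 and 0 polyamine genes fell. Without the block the 6 lists had 11, 13, 11, 7, 4 and 2 falls. Rises numbered 2, 3 and 1 for glycolysis and hypoxia and 0, 1 and 0 for ribosome biogenesis without replicates 1, 2 and 3. Without the block they numbered 2 and 1.

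Chaperones and stress genes of the endoplasmic reticulum fell in 16 of 34 cases (47.1% against 10.3% of all genes, median −0.46), and 1 rose, the stress sensor Eif2ak3 (0.44). In total mRNA the median of these 34 genes was −0.49. Herpud1, which serves the degradation of misfolded proteins, went from 532, 335 and 286 to 174, 142 and 137 CPM (log2 fold change −1.300, standard error 0.17, adjusted p = 0.00161). The disulfide isomerase P4hb went from 1884, 1726 and 1943 to 1098, 1049 and 1208 CPM (log2 fold change −0.73, standard error 0.12, adjusted p = 0.00395). Of 40 DNA replication genes 16 fell (40.0%) and 0 rose (median −0.40 in polysome and −0.40 in total mRNA). Orc6, a subunit of the origin recognition complex, went from 25.4, 28.3 and 33.9 to 15.6, 13.3 and 17.4 CPM (log2 fold change −0.91, standard error 0.14, adjusted p = 0.00319). Among cell division genes 6 of 38 rose (15.8% against 12.4% of all genes; Cenpf most, 0.89) and 1 fell (the cyclin Ccnd3, −1.16). Without replicates 1, 2 and 3 in turn 5, 21 and 1 reticulum genes and 6, 19 and 0 replication genes fell, and 1, 15 and 0 cell division genes rose. Without the block these numbers were 11, 9 and 4. In the same order of replicates 0, 1 and 0 reticulum genes rose and 0, 2 and 0 cell division genes fell. Without the block these were 0 and 0.

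Of 52 interferon-stimulated genes, which type I interferon switches on against viruses, 28 fell in heavy polysomes (53.8% against 10.3% of all genes). Of the others 0 rose and 24 did not pass. Summed over the list, LPS libraries held 17512, 19338 and 16392 CPM and torin1 libraries 7971, 12097 and 7717 CPM, against 2006, 4713 and 2614 CPM in vehicle cells, and replicate 2 was the highest with torin1. The median log2 fold change was −0.87, with −1.11, −0.45 and −0.97 in the pairs, and −0.93 in total mRNA. Mx1, an antiviral GTPase, fell from 60.3, 80.8 and 35.3 to 6.59, 27.8 and 5.16 CPM (log2 fold change −2.53, standard error 0.35, adjusted p = 0.00226), and in torin1 replicate 2 it was several times higher than in the others. Oasl1 fell from 2067, 1911 and 1623 to 519.8, 803 and 408 CPM (log2 fold change −1.77, standard error 0.21, adjusted p = 0.00139). The IgG receptor Fcgr1, counted among the macrophage markers, went from 473, 485 and 299.5 to 36.8, 108 and 24.5 CPM (log2 fold change −3.15, standard error 0.29, adjusted p = 0.000682). With replicates 1, 2 and 3 left out in turn, 15, 46 and 4 members fell, and 10 fell without the block.

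**Figure D3:**
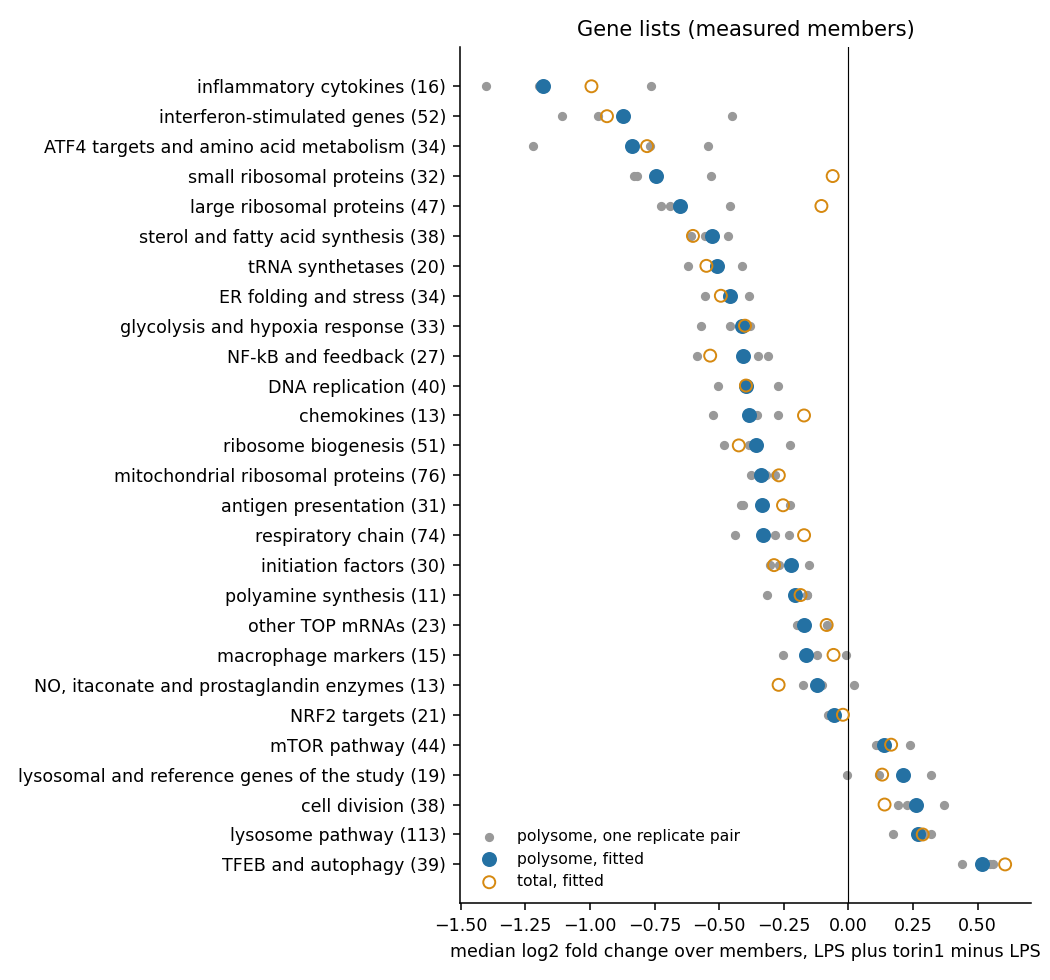
Median log2 fold change over the measured members of 27 gene lists, LPS plus torin1 minus LPS, with member numbers in brackets. Filled circles are polysome mRNA, open circles total mRNA and grey points the 3 replicate pairs in polysome mRNA; the ribosomal protein lists are those where polysome and total values lie farthest apart.

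Most called cytokine mRNAs were lower with torin1. Of 16 measured of 28 listed, 10 fell (62.5% against 10.3% of all genes) and 1 rose (median −1.18, and −0.99 in total mRNA). Lif, a cytokine of the interleukin 6 family, fell most, from 166, 246 and 275 to 25.7, 51.4 and 42.7 CPM (log2 fold change −2.54, standard error 0.249, adjusted p = 0.000768). Il1rn, the interleukin 1 receptor antagonist and the most abundant member, had 5131, 4033 and 3134 CPM with LPS and 4233, 3738 and 4423 CPM with torin1 and did not pass (log2 fold change 0.03, standard error 0.22, adjusted p = 0.937). Tnfsf9, the ligand of 4-1BB, rose from 67.2, 90.1 and 57.4 to 174, 264 and 240.7 CPM (log2 fold change 1.69, standard error 0.24, adjusted p = 0.00235). Among 13 chemokines of 21 listed, 4 fell (30.8%) and 2 rose (15.4%, near the 12.4% of all genes). Cxcl10 went from 1483, 2256 and 1769.7 to 121, 374 and 88.3 CPM (log2 fold change −3.45, standard error 0.34, adjusted p = 0.000768), and Cxcl11 from 54.6, 53.1 and 31.7 to 1.65, 5.52 and 1.39 CPM (log2 fold change −4.20, standard error 0.42, adjusted p = 0.000794). Both are ligands of CXCR3, and 41.7% of the exon bases of Cxcl11 overlap an annotated gene of the other strand, so its counts are less certain. Ccl6 rose (log2 fold change 1.62, standard error 0.21, adjusted p = 0.00161), and Ccl3, the most abundant, lay at 7669, 12209 and 10069 and 7754, 10095 and 10391 CPM without passing (log2 fold change −0.07, standard error 0.20, adjusted p = 0.839). When replicate 1, 2 or 3 was left out, 8, 11 and 5 cytokines and 3, 5 and 3 chemokines fell, and without the block 8 and 2. In the same order 1, 1 and 1 cytokines and 1, 3 and 1 chemokines rose, and without the block 1 and 1. Several cytokines known in LPS responses, such as Il6 and Il12b, were not in the table.

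NF-kB subunits and feedback regulators of the inflammatory response fell in 9 of 27 cases (33.3% against 10.3% of all genes) and rose in 2 (7.41% against 12.4%). The phosphatase Dusp2 went from 150.0, 121 and 73.8 to 19.4, 23.3 and 7.73 CPM (log2 fold change −2.83, standard error 0.24, adjusted p = 0.000576) and Socs3, an inhibitor of cytokine signalling, from 1987, 1891 and 1284 to 711, 882 and 483 CPM (log2 fold change −1.32, standard error 0.17, adjusted p = 0.00177), while the phosphatase Dusp4 rose (log2 fold change 0.67, standard error 0.19, adjusted p = 0.037). In the list of nitric oxide, itaconate and prostaglandin enzymes 3 fell and 3 rose of 13 (23.1% each way, with 12.4% of all genes rising). Argininosuccinate synthase (Ass1) fell from 18.4, 16.8 and 16.4 to 3.78, 7.05 and 3.52 CPM (log2 fold change −1.92, standard error 0.23, adjusted p = 0.00139). Irg1, which makes itaconate, did not pass (log2 fold change 0.37, standard error 0.27, adjusted p = 0.362). Of 31 genes of antigen presentation 8 fell (25.8%), with the costimulatory receptor Cd40 at 646, 553 and 473 and 257, 280.3 and 185 CPM (log2 fold change −1.24, standard error 0.23, adjusted p = 0.00719), and 2 rose. The rising share was 6.45% against 12.4% of all genes. Haem oxygenase (Hmox1) was among the 4 of 21 NRF2 targets that rose, 19% against 12.4% of all genes (254, 236 and 196 against 388, 337 and 411 CPM, log2 fold change 0.74, standard error 0.14, adjusted p = 0.00728), and Srxn1 fell (−0.54). Without replicates 1, 2 and 3 in turn 5, 16 and 2 genes of the first list, 2, 6 and 0 of the enzymes and 2, 16 and 0 antigen presentation genes fell, and 2, 4 and 0 of the enzymes and 0, 4 and 0 NRF2 targets rose. Without the block these numbers were 5, 2, 3, 3 and 2. In the same order of replicates 0, 4 and 0 genes of the first list and 0, 2 and 0 antigen presentation genes rose. Without the block 0 and 1 of these rose, and with at least 10 counts in every library 2 and 0. NRF2 targets fell in 1, 3 and 0 cases, and in 1 without the block.

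Lysosomal genes were among those with a higher level in heavy polysomes. In the lysosome pathway, a list taken from the study whose direction is not independent evidence, 36 measured genes rose, 5 fell and 72 did not pass, which is 31.9% rising against 12.4% of all genes. The falling share was 4.42% against 10.3% of all genes. Their summed level went from 32174, 31697 and 31139 to 41260.0, 37657 and 43093 CPM, without overlap between the groups, and vehicle cells had 25115, 23136 and 23478 CPM. The median log2 fold change was 0.27 (0.29, 0.17 and 0.32 in the pairs) and 0.29 in total mRNA. In total mRNA 55 members were higher and 13 lower. The proteases cathepsin D and B (Ctsd, Ctsb) went from 2818, 2688 and 2797 to 4896, 5319 and 6207 CPM (log2 fold change 0.98, standard error 0.14, adjusted p = 0.00226) and from 4687, 4933 and 4419 to 7646, 6482 and 7787 CPM (log2 fold change 0.65, standard error 0.15, adjusted p = 0.0178). Atp6v0d2, a subunit of the proton pump of lysosomes, rose most, from 2.42, 4.50 and 3.71 to 11.04, 16.3 and 23.8 CPM (log2 fold change 2.27, standard error 0.26, adjusted p = 0.0012). Cathepsin C (Ctsc) fell, from 872, 556 and 611 to 268, 191 and 221 CPM (log2 fold change −1.57, standard error 0.13, adjusted p = 0.000516). Of the exon bases of Ctsd, 34.4% overlap another annotated gene. With replicates 1, 2 and 3 left out in turn, 12, 48 and 3 members rose, and 23 rose without the block. In the same order 3, 9 and 1 members fell, and 5 fell without the block.

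Autophagy genes and TFEB family members and targets rose in 20 of 39 cases (51.3% against 12.4% of all genes) and fell in 0 (against 10.3%). The median was 0.52 (0.44, 0.56 and 0.55 in the pairs) and 0.61 in total mRNA. When replicate 1, 2 or 3 was left out, 14, 22 and 0 rose, and 14 without the block. Of 44 components of the mTOR pathway 10 rose and 2 fell, 22.7% and 4.55% against 12.4% and 10.3% of all genes. Pdcd4, an inhibitor of the helicase eIF4A, rose from 1.52, 1.40 and 1.38 to 8.39, 6.35 and 10.3 CPM (log2 fold change 2.54, standard error 0.24, adjusted p = 0.000673), and the autophagy kinase Ulk1 from 16.1, 16.1 and 12.6 to 30.6, 38.9 and 28.96 CPM (log2 fold change 1.14, standard error 0.17, adjusted p = 0.00319). The insulin receptor (Insr) rose by 1.13 on the log2 scale, the GTPases Rragb and Rragc by 0.83 and 0.70, the inhibitor Tsc1 by 0.75, the transcription factors Foxo3 and Foxo1 by 0.63 and 0.57 and the translation repressor Eif4ebp2 by 0.57. Larp1, which binds TOP mRNAs, did not pass (log2 fold change −0.23, standard error 0.14, adjusted p = 0.249). Of the 12 called genes 6 passed without replicate 1 and 3 (Ddit4, Sesn2 and Pdcd4) without replicate 3.

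In a list of 19 lysosomal and reference mRNAs taken from the study, whose direction is not independent evidence, 6 rose and 2 fell, 31.6% and 10.5% against 12.4% and 10.3% of all genes. Besides Ctsd these were Sgsh, a sulfamidase, which rose from 3.68, 6.28 and 7.60 to 11.1, 14.2 and 14.2 CPM (log2 fold change 1.19, standard error 0.27, adjusted p = 0.0164), Mcoln1, the lysosomal calcium channel (log2 fold change 0.72, standard error 0.14, adjusted p = 0.00817), Hyal1 (0.77), Galc (0.69) and Atp6v1d (0.63). Of the exon bases of Hyal1, 50.8% overlap the neighbouring gene Naa80 on the same strand. Those that fell were Ctsc and Cln3, the latter from 307, 298 and 247 to 179, 206 and 173 CPM (log2 fold change −0.61, standard error 0.12, adjusted p = 0.00878). Lamp1 had 999, 936 and 1087 CPM with LPS and 1348, 1148 and 1378 CPM with torin1 and did not pass (log2 fold change 0.36, standard error 0.12, adjusted p = 0.0584). The reference mRNA Actb did not pass either (log2 fold change −0.43, standard error 0.16, adjusted p = 0.0895). Without replicate 3, 1 of the 8 called genes passed (Ctsc).

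**Figure D4:**
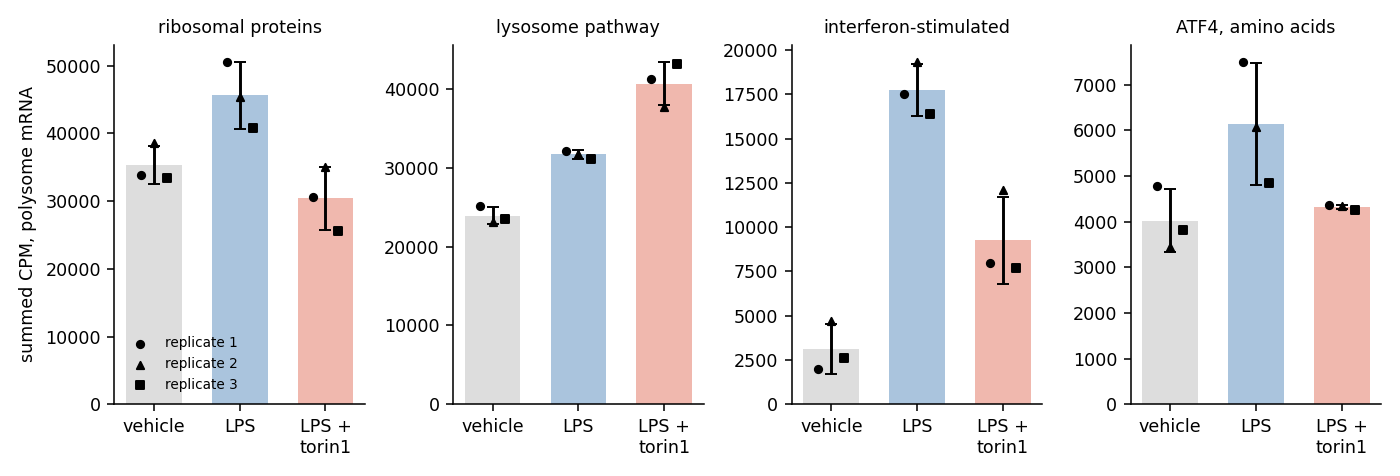
Summed CPM in polysome mRNA of ribosomal proteins, lysosome pathway genes, interferon-stimulated genes and ATF4 and amino acid genes in vehicle, LPS and LPS plus torin1. Bars are means, error bars the SD of 3 replicates and points the libraries; in each pair the lysosome sum is higher with torin1 than with LPS and the other sums are lower.

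Macrophage markers moved in both directions, with 3 rising (Mpeg1, Adgre1 and Fcgr3) and 3 falling (Fcgr1, Aif1 and Csf1r) of 15, 20.0% each way against 12.4% and 10.3% of all genes. With replicate 1, 2 or 3 left out, 4, 3 and 0 rose and 1, 5 and 1 fell. Lyz2 had 12737, 9232 and 13253 CPM with LPS and 9878, 7039.7 and 8774 CPM with torin1 (log2 fold change −0.45, standard error 0.16, adjusted p = 0.0725), and it shares sequence with Lyz1. Adgre1, Fcgr3, Aif1, Csf1r and Eif3k were named after their values were seen.

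The change was also described by the length of the protein, without a test, over the 11110 genes that matched the annotation. In 5 bins of 2222 genes each, the median log2 fold change in polysome mRNA was −0.19 for coding lengths of 24 to 242 codons, −0.07, 0.03 and 0.09 in the next bins and 0.11 for those of 813 codons or more. The numbers of genes that fell were 329, 295, 208, 185 and 130, and those that rose 164, 233, 299, 339 and 354. The median lay below 0 in the shortest bin and above 0 in the longest in each of the 3 pairs (−0.250, −0.14 and −0.16 in the shortest bin, 0.13, 0.097 and 0.12 in the longest). In total mRNA the medians ran from −0.09 to 0.08. Without the ribosomal proteins the shortest bin was at −0.17. The first 50 bases had a median GC share of 64% in genes that fell and 66% in genes that rose and in all genes.

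**Figure D5:**
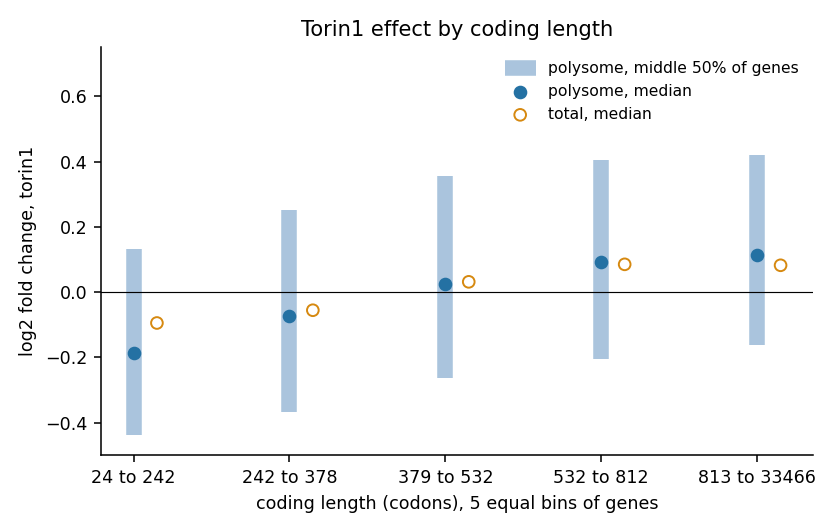
Median log2 fold change in polysome mRNA (filled circles, bars for the middle 50% of genes) and total mRNA (open circles), LPS plus torin1 minus LPS, in 5 equal bins of genes by coding length in codons. The polysome median runs from −0.19 in the shortest bin to 0.11 in the longest.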

How the data were processed

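RNA was sequenced from 18 libraries of RAW264.7 cells, 3 replicates in each of 6 groups. Per the labels and methods, the authors used Hisat2 for alignment (GRCm38) and featureCounts for counting, and the deposited values are raw counts, with genes at 0 in any library removed. Tests were run in edgeR 4.0.16 (R 4.3.3, limma 3.58.1): TMM, quasi-likelihood F test, all 9 libraries of an RNA type in 1 fit, replicate number as a block, Benjamini-Hochberg over all genes, call at an adjusted p of at most 0.05. The difference between polysome and total mRNA was an interaction in 1 fit of 18 libraries with the lysate as a block. DESeq2 1.42.0, no block, RLE size factors, library totals, an adjusted p of at most 0.25, at least 10 counts in every library, only the libraries compared and each replicate left out were the alternatives. The fits were tested on simulated data. Genes named are, among called genes with the same direction in all 3 pairs, the 12 largest rises and falls in log2 fold change (mean of at least 5 CPM) and the 6 largest gains and losses in CPM, and also, for each of 28 lists the largest called rise and fall and the most abundant member, a list of lysosomal and reference genes of the study, the 6 smallest p in each direction of the interaction and called mTOR pathway members. A few genes that these rules pick are not reported here. Members and lists were chosen with earlier results of these data known. Errors are standard errors of the fit. Coding lengths and starts came from GENCODE M21, and 11110 genes matched. Libraries came from a stranded protocol and the pipeline ran on default settings, but whether counting was strand-specific is not stated.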

Additional observations from a re-analysis of the deposited data

Results flagged for a closer look

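In the test of polysome minus total mRNA the torin1 effect differed between the RNA types for Rps19 (−0.99 on the log2 scale), Rps18 (−0.90), Rps18-ps3 (−1.21) and Rps27rt (−1.08), each lower in polysome mRNA. As given in the Results, these calls did not hold in most alternatives. The genes that the naming rules pick were also searched for opposite directions in the 2 RNA types: for 4 of them all 3 polysome pairs were higher with torin1 and all 3 total mRNA pairs were lower: Atp5b (difference 0.23), Gatad1 (0.46), Gm9905 (1.97) and Plod2 (1.65). Gatad1, Gm9905 and Plod2 had been picked by the test of this difference, and over all 11243 genes 40 had this pattern and 41 the reverse. None of these 4 passed the test of the difference (adjusted p = 0.993, 0.993, 0.993 and 0.993 in edgeR), and Gm9905 and Plod2 lay under 1 CPM in polysome mRNA. Groups of 3 libraries were not tested for single libraries that stand apart.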

How the results depend on the processing

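In polysome mRNA the counts of called genes stayed within 1.5 times under RLE size factors, library totals, DESeq2 and the count filter, and moved to 1557 (911 higher, 646 lower) without the block, 5647 (2795 higher, 2852 lower) with only the 6 libraries compared and 5587 (2851 higher, 2736 lower) at an adjusted p of at most 0.25. With 1 replicate left out they lay from 205 to 4251 (82 to 2136 lower). In total mRNA 7196 (3662 higher, 3534 lower) passed at 0.25, 1520 were lower without the block, and with 1 replicate left out the range was 1694 to 4177 (948 to 2195 higher, 746 to 1982 lower). The difference between RNA types had 0 calls without the block, with RLE size factors or with only the libraries compared, 1 with library totals, 2 with the count filter, 31 (1 higher, 30 lower) with DESeq2 and 25, all lower, at 0.25. Its range with 1 replicate left out was 0 to 18 (all lower, 0 higher). No gene called both in polysome mRNA and under an alternative changed direction. Of 56 counts of list members, 6 moved by more than 1.5 times with library totals, 5 with DESeq2, 0 with RLE size factors and 22 without the block. With the count filter 1 moved, with only the libraries compared 33 and at an adjusted p of at most 0.25 34. Without replicates 1, 2 and 3 in turn 33, 21 and 41 moved. Of 99 named genes called in polysome mRNA, 34 passed under every alternative fit in which they were tested (3 were not tested with the count filter), 78 without the block, 62 without replicate 1, 99 without replicate 2 and 36 without replicate 3. The cause was not tested, except that a threshold of 0.25 admits more genes by construction. RefSeq starts, an alternative chosen after seeing the data, covered 76.9% of genes and 73.4% of ribosomal proteins, under the 80% of genes set as the least, so that check is void. Protein length was replaced by coding length, since no protein table was at hand. Library totals shifted the median log2 fold change in polysome mRNA by 0.0642. Counts below 10 limit 49 of the rising and 27 of the falling genes.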
